A study of Bos taurus with 6 samples.

Results

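The family of miR-10, miR-99, miR-100 and miR-125 was examined in the liver of Angus steers kept on grass or on grain, through the 8 mature miRNAs that the cattle annotation lists for it: bta-miR-10a, bta-miR-10b, bta-miR-99a-5p, bta-miR-99a-3p, bta-miR-99b, bta-miR-100, bta-miR-125a and bta-miR-125b. The members were chosen by name, all 8 are among the 1030 mature miRNAs in the count tables, and all 8 are among the 456 tested, each with more than 2 counts in no fewer than 2 libraries. Small RNA libraries came from 3 steers per regimen, 1 library per animal, from the left lobe of the liver, and all animals belonged to the closed Wye Angus herd. The grass-fed steers received alfalfa, hay or grass pasture and were 21 months old. The grain-fed steers received corn silage, shelled corn, soybean and minerals and were 14 months old, so that diet and age cannot be told apart.

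MicroRNAs are short RNAs that lower the translation and stability of mRNAs, which they recognise mainly through a seed near their 5′ end. The miR-10 genes lie inside HOX clusters, the gene arrays that set position along the body axis, and miR-99 and miR-100 are close relatives of miR-10 with a different seed. miR-125 is the vertebrate counterpart of lin-4, the first known miRNA of worms, and its genes usually lie beside a miR-99 or miR-100 gene and a let-7 gene. miR-99 and miR-100 are known for targeting mTOR and IGF1R, which carry nutrient and insulin-like growth signals, and miR-125 is known in development, blood cells and inflammation.

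In the RefSeq annotation of ARS-UCD2.0, an assembly later than the authors' ARS-UCD1.2 and used here for gene names alone, bta-mir-10a overlaps HOXB3 and lies between HOXB5 and HOXB4. bta-mir-10b overlaps HOXD4. bta-mir-99a and bta-mir-125b-2 lie beside let-7c and overlap the same lncRNA, LOC132345457, between CXADR and USP25. bta-mir-100 lies beside let-7a-2 and bta-mir-125b-1, between SORL1 and UBASH3B, and bta-mir-125b-1 overlaps the lncRNAs LOC101903557 and LOC100848689. bta-mir-99b lies beside let-7e and bta-mir-125a, and bta-mir-125a overlaps SPACA6. The miR-99, miR-100 and miR-125 members therefore come from 3 gene clusters, each with a miR-99 or miR-100, a let-7 and a miR-125 gene. MIR12038 is also listed near the bta-mir-99b cluster and near neither of the others.

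The libraries held 3824592 to 6133960 miRNA counts in the grass-fed group and 464875 to 892929 in the grain-fed group, so that depth also separated the groups. bta-miR-122, the main miRNA of hepatocytes, was the most abundant miRNA by mean and was higher in grass-fed liver (log2 fold change 1.12, FDR = 0.00419, edgeR). Levels below are CPM, counts set relative to a common library size, after scaling by the trimmed mean of M values (TMM), and log2 fold changes are grass-fed over grain-fed from the edgeR quasi-likelihood test, with the false discovery rate (FDR) taken over all 456 miRNAs. A raised member is one with FDR below 0.1 and a positive log2 fold change. The TMM factors also separated the groups. They ran from 0.692 to 0.996 for grass-fed libraries, whereas all grain-fed factors lay between 1.11 and 1.21. Relative to shares of counts, TMM scaling thus raised the CPM of every grass-fed library and lowered that of every grain-fed library. The factor of grass-fed replicate 2, at 0.692, was the lowest of the 6, so its CPM were raised most.

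Of the 8 members, 2 rose in grass-fed liver (bta-miR-125a and bta-miR-125b), 1 fell (bta-miR-99a-3p) and 5 missed FDR 0.1. Among the 456 tested miRNAs, 19.1% were called in either direction, 9.43% as higher and 9.65% as lower. That even split depended on TMM, since with total counts alone 1.97% were called as higher and 14.3% as lower, with the same 3 members called in the same directions. The CPM ranges of the groups did not overlap for the same 3 members, and this was so for 32.9% of all tested miRNAs. The median log2 fold change was 0.26 over the members and 0.13 over all tested miRNAs. Some members are relatives in sequence (bta-miR-10a and bta-miR-10b, bta-miR-99a-5p and bta-miR-100, bta-miR-125a and bta-miR-125b). The mature sequences were not compared here, and the number of mismatches the authors allowed is not given in the sources used here. Whether reads were counted under the wrong relative could therefore not be judged for any pair.

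**Figure D1:**
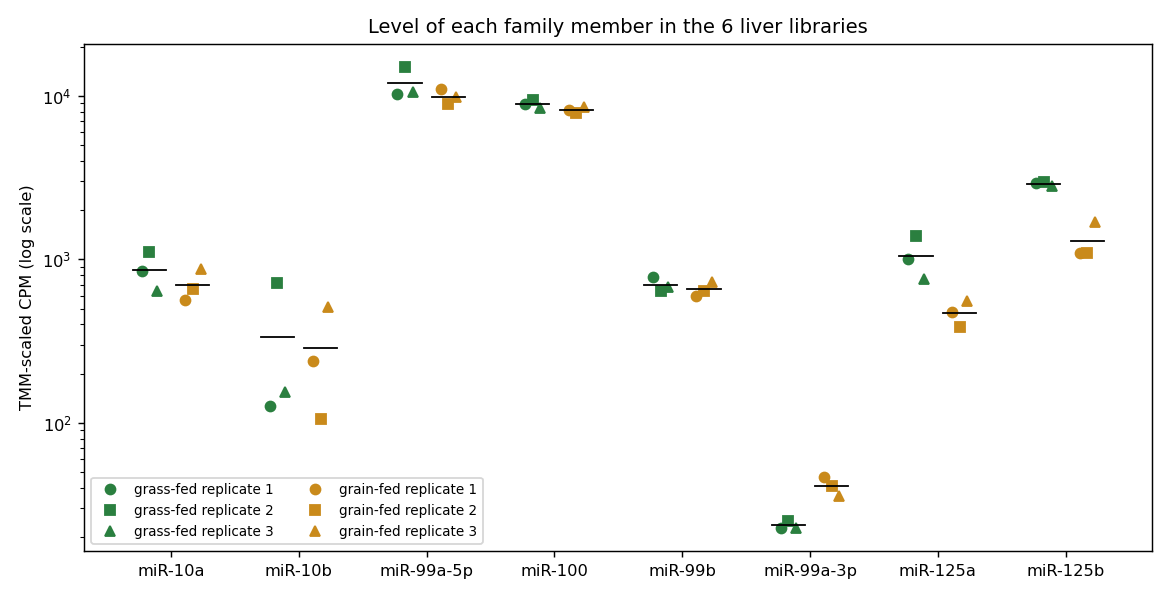
Level of each member in every library, as TMM-scaled CPM on a log axis. Green marks are grass-fed and ochre marks grain-fed libraries, marker shapes stand for replicates 1 to 3 and black lines for group means. The grass-fed libraries lie above all grain-fed libraries for miR-125a and miR-125b and below them for miR-99a-3p, and the groups overlap for the other 5 members.

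The 8 members made up 2.29% ± 0.118 of the miRNA counts in grass-fed and 2.50% ± 0.282 in grain-fed liver (SD, n = 3 each), and this difference was within the spread of the libraries (two-sided exact permutation p = 0.3). With bta-miR-122 left out of the denominator the shares were 3.24% ± 0.132 and 3.06% ± 0.225 (SD, n = 3 each), which turns the sign of the difference from -0.209 to 0.182 percentage points. The difference was -0.016 with counts summed over precursors, -0.081 when grain-fed replicate 3 was left out and -0.360 when grain-fed replicate 2 was. As summed CPM after TMM scaling the groups did not overlap, at 23958 to 31254 CPM in grass-fed and 19782 to 22741 CPM in grain-fed libraries. The direction of the family total thus depends on the scaling, and the summed CPM was not tested. bta-miR-99a-5p and bta-miR-100 dominated the family. bta-miR-99a-5p supplied 44.5% ± 3.37 of the family's counts under grass and 46.0% ± 3.12 under grain feeding (SD, n = 3 each), and bta-miR-100 supplied 33.6% ± 3.10 and 38.1% ± 1.54. The share of bta-miR-125b was 10.9% ± 1.25 in grass-fed and 5.94% ± 1.33 in grain-fed libraries, and that of bta-miR-125a 3.89% ± 0.655 and 2.18% ± 0.254 (SD, n = 3 each).

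In order of mean level, bta-miR-99a-5p ranked 15th and bta-miR-100 18th of the 456 miRNAs, followed by bta-miR-125b at 35, bta-miR-10a at 57, bta-miR-125a at 64, bta-miR-99b at 68, bta-miR-10b at 90 and bta-miR-99a-3p at 178. Within each group the ranges of the first 3 did not overlap. In grass-fed liver the ranges of bta-miR-125a, bta-miR-10a and bta-miR-99b overlapped, so that their order is not set by these data. The wide grass-fed range of bta-miR-10b also overlapped those of bta-miR-10a and bta-miR-99b. In grain-fed liver bta-miR-10a and bta-miR-99b overlapped and both lay above bta-miR-125a, whose range overlapped that of bta-miR-10b. Ligation of adapters favours some sequences over others, so the order between miRNAs is approximate.

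bta-miR-125b was the member with the smallest FDR. Grass-fed replicates 1 to 3 had 2913, 2970 and 2794 CPM (mean 2893 ± 89.8, SD, n = 3). Grain-fed replicates 1 to 3 had 1087, 1086 and 1691 CPM (mean 1288 ± 349, SD, n = 3). In TMM-scaled CPM the grass-fed libraries differed little among themselves, and grain-fed replicate 3 was the highest of its group without reaching them. Both features depend on the scaling. bta-miR-125b had 12604 of 6133960 miRNA counts in grass-fed replicate 2, against 13835 of 5076925 in grass-fed replicate 1. It had 953 of 464875 in grain-fed replicate 3, nearly the same share as in grass-fed replicate 2. The log2 fold change was 1.17, or 2.25-fold (standard error 0.22, FDR = 0.00328, edgeR). The mature sequence can come from the bta-mir-125b-1 or the bta-mir-125b-2 gene, and reads that fit both are listed under each. The counts under bta-mir-125b-2 came to 97.0% to 99.8% of those under bta-mir-125b-1 in the 6 libraries, so the increase cannot be given to either gene.

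bta-miR-125a, the product of a separate gene, rose by a like amount. It stood at 1011, 1389 and 759 CPM in the grass-fed and at 474, 385 and 557 CPM in the grain-fed libraries, replicates 1 to 3 in each, with means of 1053 ± 317 and 472 ± 86.0 CPM (SD, n = 3 each). The lowest grass-fed library was above the highest grain-fed library. In TMM-scaled CPM the spread among grass-fed libraries was wider than for bta-miR-125b, a contrast that depends on that scaling. The log2 fold change was 1.16, or 2.23-fold (standard error 0.26, FDR = 0.00939, edgeR). The ratio of bta-miR-125b to bta-miR-125a counts was 2.88, 2.14 and 3.68 in the grass-fed libraries, against 2.29, 2.82 and 3.04 in the grain-fed ones, with overlapping groups (difference of mean log2 ratios 0.07, two-sided exact permutation p = 0.9).

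The size of the miR-125 increase depended on how libraries were scaled, and its call did not in the settings run here. When total counts alone set the scale, bta-miR-125b was higher by 0.75 on the log2 scale (FDR = 0.0764, edgeR) and bta-miR-125a by 0.70 (FDR = 0.0818, edgeR), where 1.97% of all tested miRNAs were called as higher. The median of all tested miRNAs moved from 0.13 to -0.29 with that scaling. Relative to the median, bta-miR-125b was higher by 1.04 on the log2 scale with TMM and by 1.04 with total counts, and bta-miR-125a by 1.02 and 0.98. Both passed FDR 0.1 in all 16 refits with another setting or with a library left out, with log2 fold changes of 0.75 to 1.38 for bta-miR-125b and 0.70 to 1.33 for bta-miR-125a.

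**Figure D2:**
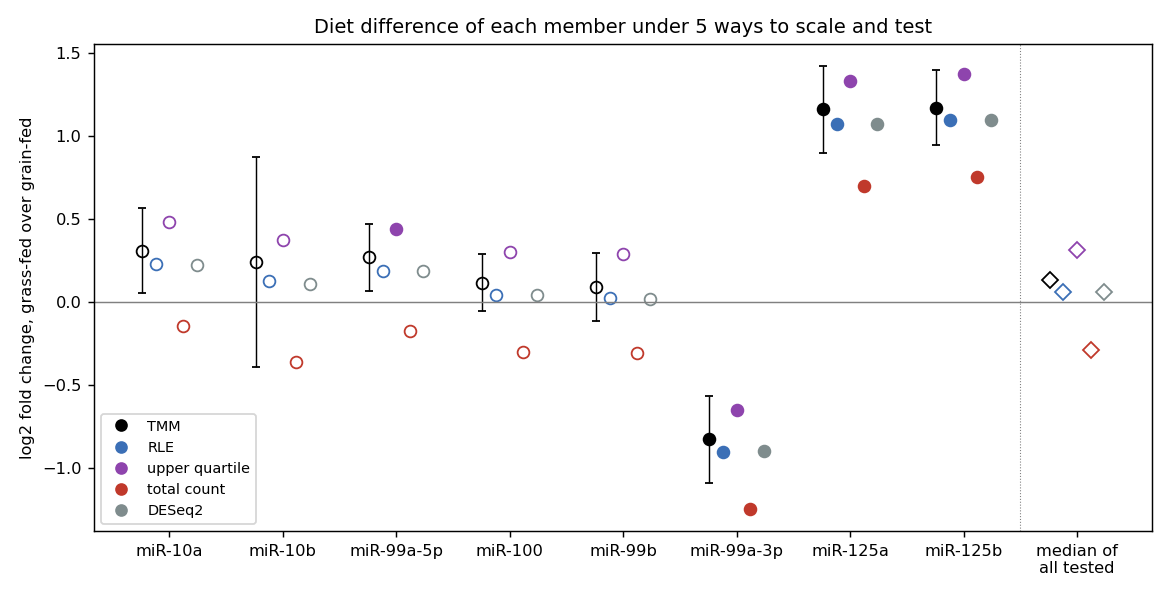
Log2 fold change of each member, grass-fed over grain-fed, with 4 ways to scale the libraries in edgeR and with DESeq2. Filled circles passed FDR 0.1, open circles did not, diamonds give the median of all tested miRNAs, and bars are standard errors of the fit with TMM. miR-125a and miR-125b are filled and positive and miR-99a-3p is filled and negative with each of the 5, while miR-10a, miR-10b, miR-99a-5p, miR-99b and miR-100 turn negative with total counts alone.

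The abundant miR-99 and miR-100 members did not pass the test. bta-miR-99a-5p had 10341, 15028 and 10512 CPM in grass-fed and 10959, 8968 and 9832 CPM in grain-fed libraries, replicates 1 to 3 in each. In CPM grass-fed replicate 2 was high, and the other grass-fed libraries lay within the grain-fed range. The low TMM factor of replicate 2 sets this. Its 63770 of 6133960 miRNA counts are no larger a share than the 40049 of 3824592 in grass-fed replicate 3. Its log2 fold change was 0.27 (standard error 0.20, FDR = 0.442, edgeR), and it was 0.07 without grass-fed replicate 2. It passed FDR 0.1 in 1 of 16 refits, that with upper-quartile normalization (0.44, FDR = 0.0847, edgeR). In TMM-scaled CPM bta-miR-100 had the narrowest range relative to its level over the 6 libraries. It stood at 8915, 9389 and 8391 CPM under grass and 8223, 7891 and 8511 CPM under grain feeding. The groups overlapped, and its fitted value of 0.12 on the log2 scale (SE 0.17, FDR = 0.753, edgeR) lay close to the 0.13 of the median miRNA.

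bta-miR-99b had 783, 636 and 680 CPM in grass-fed and 599, 644 and 731 CPM in grain-fed libraries. The groups overlapped, and the log2 fold change was 0.09 (standard error 0.20, FDR = 0.832, edgeR). The ratio of bta-miR-99a-5p to bta-miR-100 was 1.16, 1.601 and 1.25 in the grass-fed libraries, against 1.33, 1.14 and 1.16 in the grain-fed ones (difference of mean log2 ratios 0.14, two-sided exact permutation p = 0.5). bta-miR-99a-5p was 13.2 to 23.6 times as abundant as bta-miR-99b in grass-fed and 13.5 to 18.3 times in grain-fed libraries, again with overlapping groups (0.17, two-sided exact permutation p = 0.7).

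bta-miR-99a-3p, the opposite arm of the bta-mir-99a hairpin, was the scarce member. It had 108, 106 and 87 counts in grass-fed and 48, 29 and 20 counts in grain-fed libraries, or 22.74, 24.98 and 22.84 CPM and 46.8, 41.1 and 35.5 CPM. Each grass-fed library lay below each grain-fed library in CPM. The log2 fold change was -0.83 (standard error 0.26, FDR = 0.0532, edgeR), a level 1.77-fold higher under grain feeding. The call was not firm, since FDR was above 0.1 when grass-fed replicate 1 (0.101), grain-fed replicate 1 (0.182) or grain-fed replicate 2 (0.115) was left out. The log2 fold change was negative in all 16 refits, between -1.25 and -0.65.

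The arms of bta-mir-99a were also compared within each library, which needs no scaling. The 3p arm made up 0.219% (95% Wilson interval 0.182 to 0.265), 0.166% (0.137 to 0.201) and 0.217% (0.176 to 0.267) of the counts of both arms in grass-fed replicates 1, 2 and 3. It made up 0.425% (0.321 to 0.563), 0.456% (0.318 to 0.654) and 0.3596% (0.233 to 0.555) in grain-fed replicates 1, 2 and 3, where the intervals cover counting error only. The intervals of grain-fed replicate 3 and of grass-fed replicates 1 and 3 overlap, and the shares themselves did not overlap between the groups. The ratio of the 5p to the 3p arm was 455, 602 and 460 in the grass-fed libraries, against 234, 218 and 277 in the grain-fed ones, a difference of 1.07 in mean log2 ratio (two-sided exact permutation p = 0.1, the smallest that 3 against 3 libraries allow).

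The HOX-linked members did not pass the test. bta-miR-10a had 846, 1101 and 644 CPM in grass-fed and 565, 661 and 871 CPM in grain-fed libraries, which gave 0.31 on the log2 scale (SE 0.25, FDR = 0.493, edgeR). The groups overlapped. bta-miR-10b varied more between animals of a group than any other member. It had 127, 715 and 155 CPM in grass-fed and 239, 105 and 513 CPM in grain-fed libraries. Grass-fed replicate 2 and grain-fed replicate 3 stood above the rest of their groups, and the ratio of SD to mean was 0.997 in grass-fed and 0.729 in grain-fed liver, against 0.265 and 0.224 for bta-miR-10a. Its fitted value of 0.24 on the log2 scale (SE 0.63, FDR = 0.868, edgeR) became -0.97 without grass-fed replicate 2, -0.29 when grain-fed replicate 2 was dropped and 0.85 when grain-fed replicate 3 was, each above FDR 0.1, so these libraries set its direction.

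The ratio of bta-miR-10a to bta-miR-10b was 6.64, 1.54 and 4.15 in the grass-fed libraries, against 2.37, 6.31 and 1.70 in the grain-fed ones. It ranged as widely within a group as over all 6 libraries (difference of mean log2 ratios 0.25, two-sided exact permutation p = 0.9). Of the other miRNAs of the HOX clusters, 3 were looked up and none passed the count filter: bta-miR-615 had no count, bta-miR-196a had 1 count in grass-fed replicate 3, and bta-miR-196b had 4 and 1 counts in grass-fed replicates 1 and 2. A count of 0, taken as up to 3 counts, allows a level of up to 0.787 CPM in the shallowest grass-fed and 5.32 CPM in the shallowest grain-fed library.

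Of the 8 ratios compared, 4 had groups that did not overlap, and each of these 4 gave an exact permutation p of 0.1, or 0.2 after Benjamini-Hochberg adjustment over the 8. Besides the arms of bta-mir-99a, these were the 3 ratios between a miR-99 or miR-100 member and the miR-125 member of its cluster. Each of the 4 sets a called member against one that was not called. They restate those calls without library scaling and are not separate support. How often the groups separate over all pairs of miRNAs was not computed. The count ratio of bta-miR-99b to bta-miR-125a was 0.775, 0.458 and 0.897 in the grass-fed libraries, against 1.26, 1.67 and 1.31 in the grain-fed ones. Thus bta-miR-125a exceeded bta-miR-99b in every grass-fed library, and bta-miR-99b exceeded bta-miR-125a in every grain-fed library. The difference of mean log2 ratios was -1.04 (two-sided exact permutation p = 0.1).

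The count ratio of bta-miR-100 to bta-miR-125b was 3.06, 3.16 and 3.00 in the grass-fed group and 7.56, 7.27 and 5.03 in the grain-fed group. The 3 grass-fed ratios were nearly equal, although those libraries differed in depth. The difference of mean log2 ratios was -1.08 (two-sided exact permutation p = 0.1). The ratio of bta-miR-99a-5p to bta-miR-125b was 3.55, 5.06 and 3.76 in the grass-fed libraries, against 10.1, 8.26 and 5.82 in the grain-fed ones, a difference of -0.95 (two-sided exact permutation p = 0.1). Grain-fed replicate 3 had the lowest of the grain-fed values in both ratios.

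**Figure D3:**
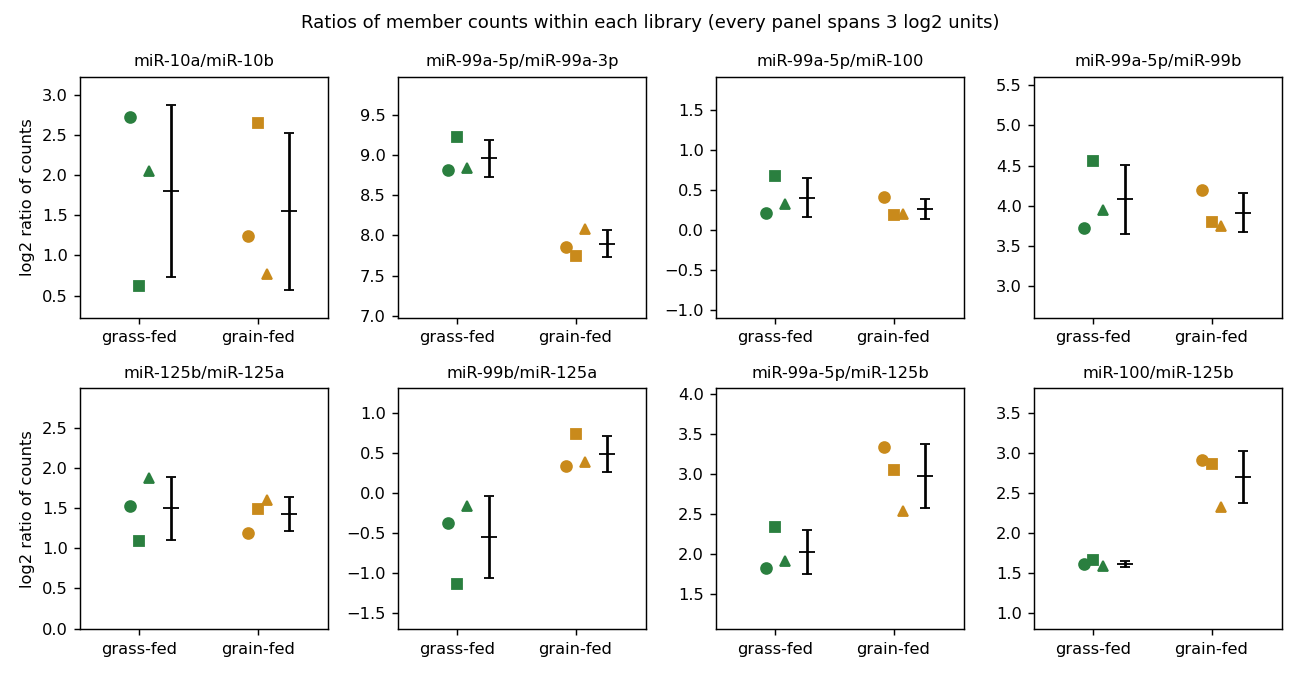
Log2 ratio of the counts of 2 members within each library, for the 8 ratios compared, in panels that each span 3 log2 units. Green marks are grass-fed and ochre marks grain-fed libraries, marker shapes stand for replicates 1 to 3, and the bars give the mean and SD of 3 libraries. The groups are apart for miR-99a-5p/miR-99a-3p, miR-99b/miR-125a, miR-99a-5p/miR-125b and miR-100/miR-125b and overlap in the other 4 panels.

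The let-7 members of the clusters were set beside them. bta-let-7a-5p rose (log2 fold change 0.70, standard error 0.22, FDR = 0.0532, edgeR), as did the passenger arm bta-let-7a-3p (1.13, FDR = 0.0309, edgeR), whereas bta-let-7c had 0.40 (FDR = 0.295, edgeR) and bta-let-7e 0.53 (FDR = 0.195, edgeR). bta-let-7a-5p also comes from genes outside the miR-100 cluster, so its value is not that of bta-let-7a-2 alone. In the 3 clusters the log2 fold change was lowest for the miR-99 or miR-100 member, intermediate for the let-7 member and highest for the miR-125 member. It was 0.27, 0.40 and 1.17 for bta-miR-99a-5p, bta-let-7c and bta-miR-125b, then 0.12, 0.70 and 1.17 for bta-miR-100, bta-let-7a-5p and bta-miR-125b, and 0.09, 0.53 and 1.16 for bta-miR-99b, bta-let-7e and bta-miR-125a. This order was the same in all 17 fits. A change of scaling moves all miRNAs by nearly the same amount, so such fits could hardly alter it. The values of bta-miR-99a-5p and bta-let-7c lay within a standard error of each other (standard errors 0.20 and 0.23, and 0.25 for bta-let-7e). The clusters share bta-miR-125b and the libraries, so they are not 3 independent observations.

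**Figure D4:**
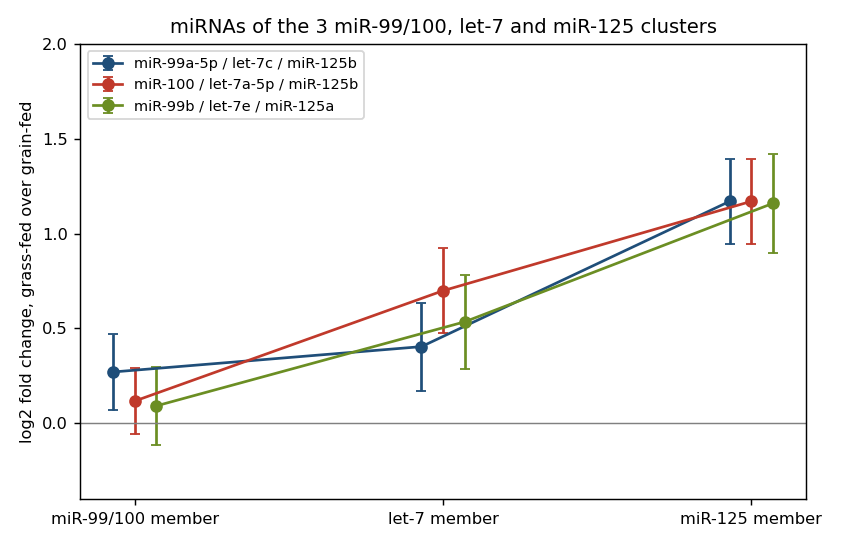
Log2 fold change, grass-fed over grain-fed, of the miR-99 or miR-100, the let-7 and the miR-125 member of each of the 3 clusters, with TMM scaling and standard errors of the edgeR fit as bars. Points rise from left to right in each cluster, and miR-125b is drawn in 2 clusters because its reads cannot be given to 1 gene.

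The ratios with let-7 members were computed after these values were seen and are given as a description. The ratio of bta-let-7c to bta-miR-125b was 0.467 to 0.768 in grass-fed and 0.680 to 1.31 in grain-fed libraries, and that of bta-let-7e to bta-miR-125a 0.420 to 0.555 and 0.471 to 1.04. Both overlapped between the groups. The ratio of bta-let-7c to bta-miR-99a-5p stayed between 0.117 and 0.154 in all 6 libraries, whereas that of bta-let-7e to bta-miR-99b ran from 0.359 to 0.970.

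Members with like profiles were sought among the 133 tested miRNAs with a mean of at least 100 CPM, by the root-mean-square distance between log2 CPM values centred on each miRNA's mean over the 6 libraries. bta-miR-30d was near both miR-125 members, at 0.17 from bta-miR-125a and 0.18 from bta-miR-125b, and bta-miR-30f lay at 0.16 from bta-miR-125b and bta-miR-660 at 0.17 from bta-miR-125a. The closest profile of any member was that of bta-miR-30a-5p to bta-miR-100, at 0.05, followed by bta-miR-199b and bta-miR-22-5p to bta-miR-99a-5p, at 0.06 and 0.07. bta-miR-214 and bta-miR-140 were closest to bta-miR-99b, at 0.08 each. bta-miR-99a-3p was closest to bta-miR-30b-5p and bta-miR-146b, at 0.17 and 0.18, and bta-miR-10a to bta-miR-378c, at 0.14, and bta-miR-151-3p, at 0.21. bta-miR-10b had no close neighbour, the nearest being bta-miR-3431 at 0.67 and bta-miR-423-3p at 0.74. No member had another member among its nearest 2. This says little about how alike the members are, since few of the 133 candidates were members. bta-miR-99a-3p, below 100 CPM, was not a candidate.

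Some markers of the cell types a liver sample can hold also differed between the groups. Their part in the changes of bta-miR-125a, bta-miR-125b and bta-miR-99a-3p was not tested. The calls below are with TMM, where 9.43% of all tested miRNAs were called as higher and 9.65% as lower. With total counts alone these shares were 1.97% and 14.3%. Of the marker lists, only that of hepatocytes had summed levels that did not overlap between the groups. In bulk tissue, fewer cells of a type and less RNA per cell cannot be told apart. Of 4 hepatocyte miRNAs, 2 were higher (bta-miR-122 and bta-miR-192) and none lower, with a summed level of 364797 to 546645 CPM in grass-fed and 192602 to 254849 CPM in grain-fed libraries. Of 6 miRNAs of stellate and smooth muscle cells, 3 were higher (bta-miR-145, bta-miR-199a-5p and bta-miR-199a-3p), with 80078 to 116241 and 74026 to 86769 CPM. Neither of the 2 endothelial miRNAs was called (11449 to 16152 and 9476 to 14335 CPM). Of 7 leukocyte miRNAs, 1 was lower (1434 to 2100 and 1960 to 2423 CPM), of 5 biliary miRNAs 1 was higher and 1 lower, of 4 skeletal muscle miRNAs (3 of them detected) and 3 erythroid miRNAs none was called, and of 4 pancreatic miRNAs 3 were lower (32.3 to 36.0 and 14.2 to 136 CPM). The pancreatic difference was large and lay in 2 libraries: bta-miR-217 had 4, 1 and 4 counts in grass-fed replicates 1 to 3 and 17, 31 and 0 counts in grain-fed replicates 1 to 3 (log2 fold change -4.79, FDR = 0.00188, edgeR), and bta-miR-216a and bta-miR-216b were also at 0 in grain-fed replicate 3.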

How the data were processed

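Small RNA libraries were prepared from total liver RNA and sequenced by the authors, who removed adapters, low-quality reads and reads outside a length window, aligned the remainder to ARS-UCD1.2 and quantified known miRBase miRNAs using miRDeep2. No miRDeep2 version or setting is given in the sources used here. The submitters' processing notes name FastQC 0.11.5 and Trimmomatic 0.36, the latter described for mRNA reads in the methods. The deposited counts are unnormalised whole numbers, with a row per combination of mature miRNA and precursor. The deposited CPM divides them by the total over all pairs and was not used in any test.

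Groups and replicate numbers came from the sample labels. The largest count over precursors was taken for each mature miRNA, since reads that fit several precursors are repeated. miRNAs exceeding 2 counts in 2 or more libraries were scaled by TMM and tested with the edgeR quasi-likelihood test (edgeR 4.0.16, R 4.3.3), with Benjamini-Hochberg adjustment over all 456 and FDR 0.1. The study names edgeR, FDR 0.1 and this count filter, while TMM and the form of the test were chosen here. Standard errors (SE) were obtained as the absolute log2 fold change over the square root of the F statistic. Within-library ratios were log2 values of counts plus 0.5, compared by exact two-sided permutation over libraries. For 3 libraries against 3 the smallest p is 0.1, so these tests cannot reach 0.05. p-values over 1 library per animal rest on 3 animals a group.

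Alternatives were total-count, upper-quartile and RLE scaling, scaling without bta-miR-122, 3 other count filters, the sum over precursors, the replicate number as a block, DESeq2 1.42.0, FDR 0.05 and each library left out. The test was run on simulated counts before use, with larger changes than those of the members and the same spread for all miRNAs. That run does not vouch for the calls made here. Named miRNAs were the 8 members, their let-7 and HOX cluster partners, the 2 nearest profiles of each member and bta-miR-122. The members and lists were chosen with earlier results of these data known. Marker lists were written from general knowledge.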

Additional observations from a re-analysis of the deposited data

How the results depend on the processing

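The number of miRNAs past FDR 0.1 was 87 in the edgeR fit, 49 (without grain-fed replicate 2) to 86 when single libraries were dropped, and 74 to 124 in the other settings, DESeq2 giving 91. At FDR 0.05 it was 70. The calls of bta-miR-125a and bta-miR-125b held in all of them at FDR 0.1. With all 6 libraries and TMM they also held at FDR 0.05, which bta-miR-125a missed without grain-fed replicate 1 (FDR = 0.0506, edgeR) or grain-fed replicate 2 (0.0791). That of bta-miR-99a-3p, the only lower member, was lost at FDR 0.05 and with the replicate number as a block (FDR = 0.121, edgeR), which leaves 0 lower members in both, and leaving out a library left 0 or 1. The replicate block gave 82 calls over all miRNAs. The labels give no shared origin for libraries with the same number. The deviations of same-numbered libraries from their group means correlated at -0.05, -0.20 and -0.01, and those of other-numbered libraries at -0.21 to 0.23. No pairing by number was seen, though so few correlations cannot exclude it.

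Members that did not pass FDR 0.1 changed sign in some settings. With total counts alone the log2 fold changes were -0.15 for bta-miR-10a, -0.36 for bta-miR-10b, -0.18 for bta-miR-99a-5p, -0.31 for bta-miR-99b and -0.30 for bta-miR-100, as the median of all miRNAs went to -0.29. bta-miR-10b also became -0.15 with the replicate block and ranged from -0.97 to 0.85 when single libraries were dropped, and bta-miR-99b lay between -0.062 and 0.15. The family share difference was 0.18 percentage points without bta-miR-122 in the denominator, and -0.360 to -0.081 when single libraries were dropped. The 4 ratios with separate groups kept their sign in every alternative run. Groups that do not overlap must keep it when a library is dropped, so this adds no support. The ratios of bta-miR-10a to bta-miR-10b, bta-miR-99a-5p to bta-miR-99b and bta-miR-125b to bta-miR-125a changed sign when some single libraries were dropped. Depth limits bta-miR-99a-3p most, with 20 to 48 counts in the grain-fed libraries.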
